A study of Artemia parthenogenetic lineage with 6 samples.

Results

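A set of 1075 strong ATAC-seq peaks with nearly the same mean level in both stages was examined in *A. parthenogenetica* cysts, out of 112790 merged peaks (0.953%). A peak entered the set when its level was at least 20 CPM (the count over the sum of the library's counts in peaks, times 1000000) in each of the 6 libraries and when the ArR_5h mean divided by the ArD_0h mean lay between 0.8 and 1 / 0.8. Of 2394 strong peaks, meaning those with at least 20 CPM in every library, 44.9% met the limits on the ratio, and 413 lay above and 906 below them. Level and ratio chose these peaks, so both are given as a description without a test.

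ArR_5h stands for wild-type cysts 5 h after embryonic diapause termination (EDT), rehydrated on ice and then kept in artificial seawater in the light. ArD_0h stands for wild-type cysts of the same batch in diapause, with no treatment named. Each group had 3 biological replicates of whole cysts, so cell types cannot be told apart. The labels give 28, 29 and 30 °C for ArR_5h replicates 1, 2 and 3, while the protocol gives 28 °C throughout, and it is unclear which holds for replicates 2 and 3. The reads of *A. parthenogenetica* had been mapped to the assembly of another species, *A. franciscana*. Contigs, genes and coordinates below are those of that assembly, ASM3288406v1.

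In diapause the *Artemia* embryo rests as an encysted gastrula with its metabolism almost at a standstill, and after EDT it resumes development inside the same shell. In ATAC-seq the Tn5 transposase inserts adaptors into DNA that is not covered by nucleosomes, so more accessible DNA gives more reads. Open stretches around a transcription start site (TSS) are typical of promoters, and those far from any TSS can hold enhancers, other control elements or unannotated genes.

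The counts in peaks were 9366963, 8708731 and 5497870 in ArR_5h replicates 1, 2 and 3, against 6557546, 6492091 and 5239170 in those of ArD_0h. ArD_0h replicate 1 stood apart. Over the 1075 peaks its Spearman correlation with the other libraries was 0.63 to 0.76, against 0.93 to 0.95 among the ArR_5h libraries and 0.94 between ArD_0h replicates 2 and 3. The peaks share the library and were chosen by level, so these values are a description. The rule was therefore also applied without ArD_0h replicate 1, and gave 2184 peaks at 1562 genes and on 918 contigs. The location of peaks, the annotated genes and the counts of genes and contigs are given in both versions, while the groups of peaks and the rankings of genes and contigs are those of the 1075 peaks.

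The strong level peaks were a mixture of levels. Their mean CPM had a median of 38.4 and ranged between 21.1 and 9491, and 270 lay between 20 and 30 CPM and 479 between 30 and 50 CPM. In all they took 7.36%, 7.39% and 8.22% of the counts in ArR_5h replicates 1, 2 and 3, and 7.21%, 7.62% and 7.69% in ArD_0h replicates 1, 2 and 3. The ranges of both groups overlap. The 7 peaks above 1000 CPM held 23.2% of the summed CPM of the set. Without them the shares were 5.74%, 5.67% and 5.88% in ArR_5h and 6.12%, 5.72% and 5.80% in ArD_0h.

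The ratio of the ArR_5h mean to the ArD_0h mean had a median of 0.970 and was above 1 in 469 peaks and below 1 in 606. With edgeR's quasi-likelihood test, 14.5% of all 112211 tested peaks were called higher and 15.2% lower in ArR_5h. A call required an adjusted p no greater than 0.05 and a log2 difference beyond 1 or -1, and 39.7% passed on the adjusted p alone. None of the 1075 passed the adjusted p, and 1 had an unadjusted p of at most 0.05. By DESeq2 neither limit was passed by any, while scaling to the library totals behind the deposited RPM values gave 2 peaks past the adjusted p of edgeR and 36 past the unadjusted one. The rule used this contrast, so nothing is read from these counts. The fitted log2 differences lay between -0.24 and 0.43, with a median of 0.06 and a median standard error of 0.27. They were above 0 in 653 peaks, so the majority lay on the higher side by the fit and on the lower side by the CPM ratio. Scaled to the library totals behind the RPM values, their median was 0.22. Without ArD_0h replicate 1 the same peaks had a median ratio of 1.03, and 149 of them passed the adjusted p of edgeR, 110 higher and 39 lower in ArR_5h, with log2 differences of up to 0.84 in size. The share was 13.9%, against 38.3% of all peaks in that fit. Only 24 of these 149 still met the rule in the remaining 5 libraries.

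A level mean did not always go with level libraries. The highest library was 1.48 times the lowest in the median peak. It was at most 1.5 times in 574 (53.4%) and more than 2 times in 109 (10.1%). The coefficient of variation was 8.15% within ArR_5h and 17.4% within ArD_0h in the median peak. ArD_0h replicate 1 was the highest library in 556 peaks and the lowest in 243. The groups did not overlap in 55 peaks, higher in ArR_5h (5.12%, against 23.8% of all peaks), and in 67 peaks, lower in ArR_5h (6.23%, against 28.4% of all peaks). The rule limits these counts too.

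**Figure D1:**
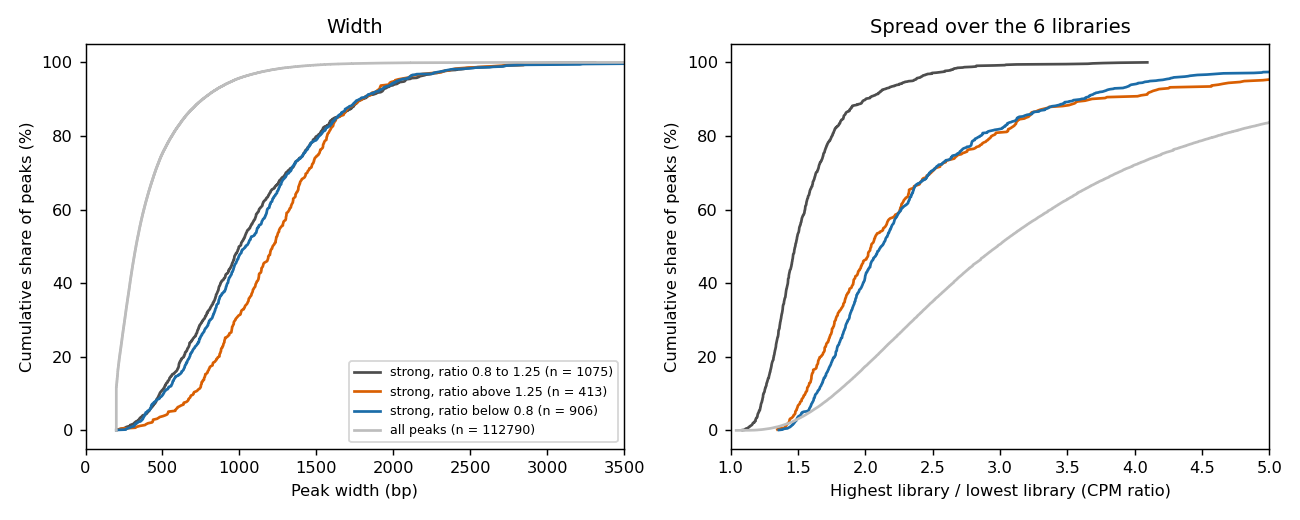
Cumulative share of peaks (%) by peak width in bp (left) and by the ratio of the highest to the lowest of the 6 libraries (right, cut off at 5), for the strong level peaks, both classes of strong peaks outside the ratio limits, and all peaks. The strong level peaks have a median width of 1002 bp, against 328 bp for all peaks, and a median ratio of libraries of 1.48, against 2.98 for all peaks.

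Peaks close to the limits show how fine the choice is. Just inside the lower limit, the peak of evm.TU.ctg2128.3 (ratio 0.8001) had 20.6, 23.4 and 20.4 CPM in ArR_5h and 25.6, 28.3 and 26.5 CPM in ArD_0h. Just outside it, the peak at ctg151:2296087-2297318 (0.7997) had 25.2, 24.5 and 23.3 CPM in ArR_5h and 20.6, 35.1 and 35.5 CPM in ArD_0h. The peak left out has overlapping groups and the peak kept does not. At the upper limit, ctg1545:722778-723643 (ratio 1.2496) was kept with 40.1, 40.8 and 42.6 CPM in ArR_5h and 24.4, 36.0 and 38.4 CPM in ArD_0h. A peak of evm.TU.ctg2028.3 at ctg2028:291848-292876 (1.255) was left out with 47.6, 50.2 and 58.8 CPM in ArR_5h and 49.6, 35.1 and 40.1 CPM in ArD_0h. For the limit on level, the lowest library of the peak at ctg2028:149456-150623 was at 20.01 CPM, and that of ctg1190:25843-26571, left out, at 19.98 CPM.

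The strong level peaks were wide and composite, as were the strong peaks outside the ratio limits. Their median width was 1002 bp (200 to 3310 bp), against 1217 bp in the strong peaks above the ratio limits, 1040.5 bp in those below and 328 bp in all peaks. At least 1000 bp were reached by 538 (50.05%), against 68.8% above the ratio limits, 52.5% below them and 4.27% of all peaks. Each merged peak lists the summits that were joined in it. The median was 10 summits, against 11 above the ratio limits, 11 below them and 1 for all peaks. Only 12 strong level peaks had a single summit (1.12%, against 0.484% above the ratio limits, 1.10% below them and 53.4% of all peaks). Counts grow with width, and the density rests on the same CPM that chose the peaks, so it is a description. Its median was 42.8 CPM per kb, against 45.6 above the ratio limits, 46.9 below them and 16.6 for all peaks. Within the set the median width was 823.5 bp at mean levels of 20 to 30 CPM, 1653 bp at 100 to 300 CPM and 1388 bp in the 17 peaks of at least 300 CPM.

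The widest peak, at ctg789:502968-506277 (3310 bp), joined 47 summits and lay upstream of evm.TU.ctg789.6 (-7254 bp from its TSS). It had 206, 203 and 218 CPM in ArR_5h and 287, 217 and 192 CPM in ArD_0h. At the other end, 200 bp at ctg1029:113580-113779 held a single summit with 50.1, 52.2 and 51.8 CPM in ArR_5h and 48.6, 39.7 and 35.9 CPM in ArD_0h. This narrow peak lay at the edge of a dense group of strong level peaks described below, and its ArR_5h libraries were all above its ArD_0h libraries.

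Most strong level peaks were far from a TSS. Over a TSS lay 49 (4.56%), within 3000 bp of a TSS but not over it 66 (6.14%), elsewhere inside a listed gene 326 (30.3%), and in distal intergenic sequence 634 (59.0%). Of all peaks, 3.16% lay over a TSS, 5.44% within 3000 bp, 39.2% in gene bodies and 52.2% in distal intergenic sequence. The median distance to a TSS was 35361 bp, against 38677.5 bp for all peaks, and 18.6% lay over 100 kb away, against 18.2% of all peaks. Strong peaks above the ratio limits had 8.47% over a TSS and those below them 1.55%. Shares of peaks are not replicates, so no test was made.

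The share over a TSS depended on ArD_0h replicate 1. Without that library 2184 peaks met the rule, of which 488 (22.3%) lay over a TSS. The 2 sets shared 902 peaks, 1282 came in and 173 dropped out. Of the 450 TSS peaks that came in, 438 were below 20 CPM in ArD_0h replicate 1 alone. Over the 488 TSS peaks the median CPM was 32.8, 31.9 and 29.1 in ArR_5h replicates 1, 2 and 3, and 11.4, 29.9 and 31.7 in ArD_0h replicates 1, 2 and 3. ArD_0h replicate 1 was the lowest of the 6 libraries in 470 of them (96.3%). The 1108 distal intergenic peaks of the same set show no such gap, with medians of 33.4, 33.0 and 32.6 CPM in ArR_5h and 30.2, 32.0 and 33.8 CPM in ArD_0h. Without this library the share over a TSS was 19.3% in the strong peaks above the ratio limits and 9.19% in those below. Whether ArD_0h replicate 1 differs in the cysts or in the preparation of the library was not tested.

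**Figure D2:**
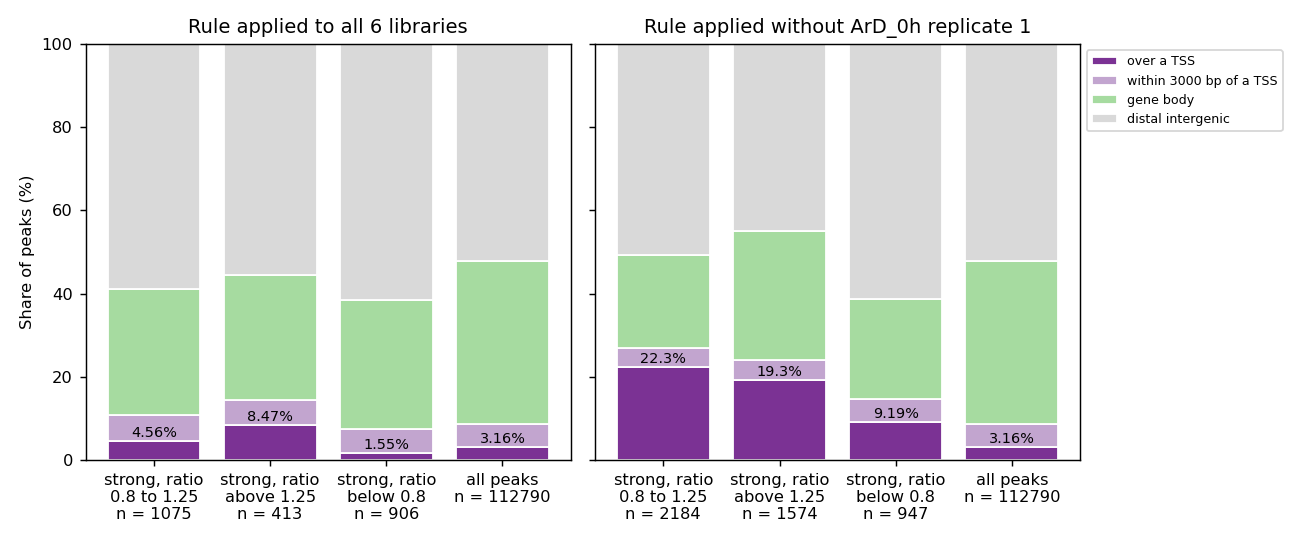
Share of peaks (%) over a TSS, within 3000 bp of a TSS, in gene bodies and in distal intergenic sequence, for strong peaks within, above and below the ratio limits and for all peaks, with the rule applied to 6 libraries (left) and without ArD_0h replicate 1 (right). The printed share over a TSS in the strong level peaks is 4.56% on the left and 22.3% on the right.

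The strongest peaks of the set were distal or intragenic, and no TSS peak was among them. The strongest, at ctg479:1150444-1152439 (1996 bp), lay upstream of evm.TU.ctg479.19 (-47279 bp from its TSS). It had 8757, 9230 and 12820 CPM in ArR_5h and 5401, 10377 and 10361 CPM in ArD_0h, which was the highest mean level of all peaks. No genome sequence was used, so whether repeated sequence adds to the counts of this and other strong peaks was not tested. The next strongest peak of the set had a mean of 1670 CPM. Further along the contig followed 2 more peaks of the set that are also assigned to evm.TU.ctg479.19. The peak at ctg479:1163653-1164839 had 1553, 1709 and 2210 CPM in ArR_5h and 867, 1815 and 1863 CPM in ArD_0h. The peak at ctg479:1175993-1177186 had 1176, 1365 and 1782 CPM in ArR_5h and 783, 1471 and 1511 CPM in ArD_0h.

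Peaks on other contigs shared the highest and the lowest library with these. At ctg532:998986-999901, 160847 bp downstream of the TSS of evm.TU.ctg532.16, the values were 1226, 1353 and 1789 CPM in ArR_5h and 794, 1483 and 1442 CPM in ArD_0h. At ctg2504:39865-40529 they were 1110, 1258 and 1605 CPM in ArR_5h and 635, 1323 and 1302 CPM in ArD_0h. At ctg163:183012-183939 they were 1076, 1218 and 1509 CPM in ArR_5h and 671, 1254 and 1310 CPM in ArD_0h. In each of these 6 peaks ArR_5h replicate 3 was the highest and ArD_0h replicate 1 the lowest library. A profile was defined after these values were seen. It asks for ArD_0h replicate 1 below 0.6 times the mean of ArD_0h replicates 2 and 3. It also asks for ArR_5h replicate 3 above 1 / 0.8 times the mean of ArR_5h replicates 1 and 2. The profile was met by 12 of the 1075 peaks, and by 6 of the 7 above 1000 CPM. Those 6 are the peaks just listed, from which the profile was drawn, so their number was fixed in advance.

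The exception above 1000 CPM was ctg1300:1968-3557, near the start of its contig, with 1375, 1079 and 1693 CPM in ArR_5h and 1718, 1278 and 1146 CPM in ArD_0h (ratio 1.00). Below it, ctg1896:161839-164083 had 836, 807 and 794 CPM in ArR_5h and 612, 892 and 948 CPM in ArD_0h. The peak at ctg1029:127758-130574 had 639, 674 and 704 CPM in ArR_5h and 800, 613 and 628 CPM in ArD_0h. In all 3 the groups overlap, and ArD_0h replicate 1 lies at either end of its group.

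**Figure D3:**
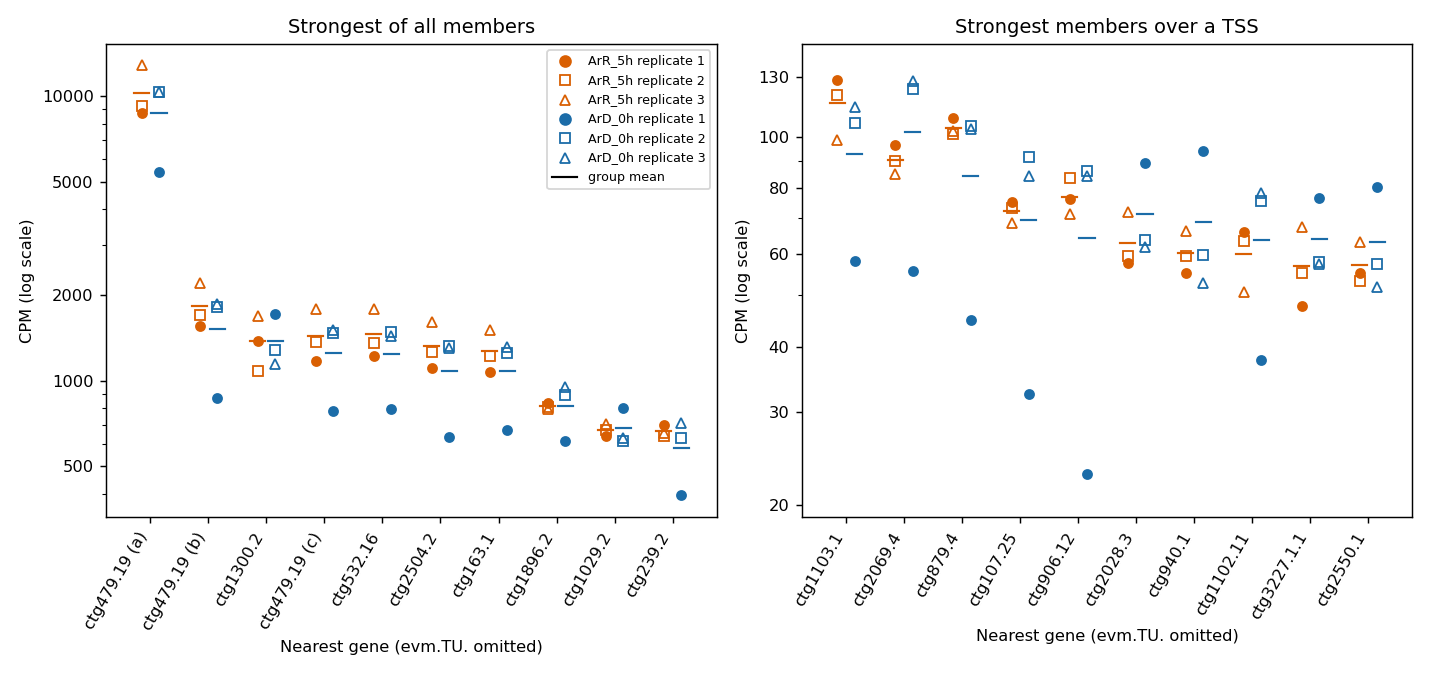
CPM in each library (log scale) of the 10 strong level peaks with the highest mean (left) and the 10 over a TSS with the highest mean (right), ArR_5h to the left of ArD_0h at each peak, with the group mean as a bar. On the left the strongest peak reaches 12820 CPM, and on the right all values lie between 22.9 and 128 CPM, with ArD_0h replicate 1 the lowest library in 6 of the 10 peaks and the highest in 4.

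The 49 strong level peaks over a TSS had a mean level between 23.1 and 104 CPM, a median width of 1473 bp and a density of 32.1 CPM per kb in the median peak. Median values were 48.0, 45.1 and 43.5 CPM in ArR_5h replicates 1, 2 and 3, and 31.0, 47.8 and 50.01 CPM in ArD_0h replicates 1, 2 and 3. ArD_0h replicate 1 was the lowest library in 30 of these peaks (61.2%), against 24.8% in distal intergenic and 13.8% in gene body peaks of the set. Their median ratio was 1.03 with all libraries and 0.940 without ArD_0h replicate 1, when 11 of the 49 left the ratio limits, 7 below and 4 above.

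The strongest TSS peak of the set, at ctg1103:62993-64645, covers the start of evm.TU.ctg1103.1, which carries the term L-phenylalanine catabolic process, the breakdown of this amino acid through tyrosine. It had 128, 120 and 98.8 CPM in ArR_5h and 58.3, 106 and 114 CPM in ArD_0h (ratio 1.24, and 1.05 without ArD_0h replicate 1). The same gene had 3 more strong level peaks inside its body. The clearest of them, at ctg1103:1212-2221, had 40.4, 40.1 and 39.5 CPM in ArR_5h and 42.2, 36.2 and 38.4 CPM in ArD_0h. Those 6 values lie between 36.2 and 42.2 CPM.

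The start of evm.TU.ctg879.4 had 109, 101 and 103 CPM in ArR_5h and 44.8, 105 and 103 CPM in ArD_0h, and apart from ArD_0h replicate 1 its libraries were alike (ratio 1.00 without it). The start of evm.TU.ctg107.25, annotated with metal ion binding, had 75.3, 73.3 and 68.8 CPM in ArR_5h and 32.5, 91.7 and 84.4 CPM in ArD_0h. In this gene ArD_0h replicates 2 and 3 were above and replicate 1 below every ArR_5h library. The start of evm.TU.ctg906.12 had 76.1, 83.5 and 71.30 CPM in ArR_5h and 22.9, 86.1 and 84.2 CPM in ArD_0h. The opposite order occurred at evm.TU.ctg940.1, with 55.2, 59.4 and 66.2 CPM in ArR_5h and 94.1, 59.8 and 52.9 CPM in ArD_0h. Likewise the start of evm.TU.ctg2028.3 had 57.5, 59.5 and 71.8 CPM in ArR_5h and 89.1, 63.6 and 61.8 CPM in ArD_0h. At evm.TU.ctg1206.2, annotated with isomerase activity and carbohydrate metabolism, the values were 44.2, 39.7 and 34.9 CPM in ArR_5h and 21.3, 43.3 and 53.3 CPM in ArD_0h.

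Some genes with a start open at the same mean level had called peaks elsewhere. Of the 49 genes with such a TSS peak, 17 had at least 1 other peak called higher in ArR_5h and 28 at least 1 called lower. Both occurred in 10 of them, and 14 had no called peak. No such counts over all genes stand beside these, so nothing is read from them. Over their 568 other tested peaks, 52 were called higher (9.15%, against 14.5% of all peaks) and 84 lower (14.8%, against 15.2%). The genes named next were picked for having the most called other peaks. At evm.TU.ctg906.12, 14 of 35 peaks were called higher and 2 lower. At evm.TU.ctg1033.19 the start had 52.0, 45.9 and 43.1 CPM in ArR_5h and 36.1, 43.9 and 40.1 CPM in ArD_0h, while 4 of its 60 peaks were called higher and 21 lower. At the merged gene model evm.TU.ctg37.12_evm.TU.ctg37.10, 11 of 24 peaks were called higher, beside a start with 38.3, 39.4 and 39.7 CPM in ArR_5h and 21.3, 58.4 and 50.01 CPM in ArD_0h. At evm.TU.ctg385.1, 6 of 22 peaks were called lower, beside a start with 36.0, 37.5 and 37.5 CPM in ArR_5h and 44.7, 42.7 and 42.8 CPM in ArD_0h. A peak is assigned to the gene with the nearest TSS, which need not be the gene it acts on.

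Functional terms were at hand for 459 genes of the table, from a list of genes that the study had selected for differing between stages in these and other libraries and that was not complete here. Among them 21 had a strong level peak (4.58%, against 606 of 12010 genes or 5.05% overall), with 30 such peaks, and 3 had it within 3000 bp of the TSS, all over it. Of 78 genes with DNA binding and transcription terms, 3 had a strong level peak. Of 35 with oxidation-reduction terms and of 27 with membrane transport terms, 3 each had one, and so had 3 of 24 with RNA binding and translation terms. None of 26 protein kinase genes, 26 proteolysis genes and 6 protein folding and stress genes had one by this rule. These counts depended on ArD_0h replicate 1. Over all 12010 genes, 1562 had a strong level peak without that library, against 606 with all libraries. Without it 14 of the 78 DNA binding and transcription genes, 7 of the 24 RNA binding and translation genes, and 6 each of the oxidation-reduction and membrane transport genes had a strong level peak, as did 4 protein kinase genes, 2 proteolysis genes and 1 protein folding and stress gene.

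Several of these genes held the strong level peak far from the start. A peak of 1892 bp at ctg270:1242570-1244461, the nearest gene to which is the transcription factor model evm.TU.ctg270.21_evm.TU.ctg270.20 at 344239 bp, had 96.7, 85.0 and 105 CPM in ArR_5h and 72.0, 85.8 and 90.5 CPM in ArD_0h. In the body of evm.TU.ctg538.1, annotated with endoribonuclease activity, 93.7, 83.9 and 91.9 CPM were found in ArR_5h and 78.5, 67.2 and 77.3 CPM in ArD_0h. That peak has all 3 ArR_5h libraries above those of ArD_0h. Upstream of evm.TU.ctg1028.3, annotated as a 6-phosphofructokinase, the enzyme of the committed step of glycolysis, a peak had 38.3, 39.8 and 40.9 CPM in ArR_5h and 55.7, 39.1 and 36.3 CPM in ArD_0h. In the body of evm.TU.ctg1232.1, annotated with calmodulin and spectrin binding, a peak had 52.7, 44.3 and 47.5 CPM in ArR_5h and 46.2, 49.9 and 46.6 CPM in ArD_0h. Those values overlap closely.

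Without ArD_0h replicate 1, 25 of the 488 level TSS peaks belonged to genes with terms. They included evm.TU.ctg372.15, annotated with mitochondrial pyruvate transport, which brings pyruvate to the citric acid cycle. Its start had 45.9, 52.2 and 50.9 CPM in ArR_5h and 15.7, 45.7 and 48.5 CPM in ArD_0h. The start of evm.TU.ctg1628.1, an adenylate kinase, which balances the adenine nucleotides, had 42.6, 47.8 and 44.0 CPM in ArR_5h and 14.2, 39.6 and 38.6 CPM in ArD_0h. The start of evm.TU.ctg448.11, annotated with the targeting of nascent proteins to membranes by the signal recognition particle, had 32.9, 30.8 and 34.4 CPM in ArR_5h and 7.93, 33.0 and 27.3 CPM in ArD_0h. In each, ArD_0h replicate 1 was less than 0.6 times every other library, which kept the peak out of the set of 1075.

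None of the 21 genes singled out by ID in the study, among them its candidate receptors, was nearest to a peak of the set. Over all genes 606 of 12010 were (5.05%). Without ArD_0h replicate 1, 4 of the 21 were, beside 1562 of all 12010 genes. With so few genes, nothing is read from either count. The start of evm.TU.ctg115.32 had 27.5, 28.4 and 22.4 CPM in ArR_5h and 10.2, 28.2 and 30.9 CPM in ArD_0h. A peak upstream of evm.TU.ctg485.29, annotated as an adhesion G-protein-coupled receptor, at -38379 bp from its TSS had 39.5, 40.8 and 33.6 CPM in ArR_5h and 11.6, 33.3 and 28.4 CPM in ArD_0h. The others were distal peaks of evm.TU.ctg470.4 and evm.TU.ctg756.7, with 14.8 and 7.32 CPM in ArD_0h replicate 1.

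Part of the strong level peaks came in groups. Within 10 kb of another peak of the set, measured between centres, lay 455 (42.33%), against 31.9% of the strong peaks below the ratio limits and 17.2% of those above them that had a neighbour of their own kind. Of the strong level peaks, 22.1% also lay within 10 kb of a strong peak below the ratio limits and 15.1% within 10 kb of one above them. These classes differ in the number of peaks, so the shares are a description. There were 168 groups of at least 2 peaks chained by gaps of up to 10 kb, and 28 groups of at least 4 held 142 peaks. The remaining 620 peaks stood alone at this distance.

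The largest group, 10 peaks on ctg214 between 1412427 and 1430262 bp (17836 bp), contained no other peak. It lay 137314 to 154750 bp from the start of the nearest gene, evm.TU.ctg214.15. Its summed CPM was 1014, 989 and 1190 in ArR_5h and 690, 1518 and 1276 in ArD_0h, and the ratios of its peaks ran between 0.838 and 0.992. All 10 had ArD_0h replicate 1 as the lowest library. Its second peak, at ctg214:1414552-1415518, had 159, 169 and 210 CPM in ArR_5h and 131, 272 and 200 CPM in ArD_0h.

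A group of 8 peaks on ctg799, between 358384 and 379453 bp, had summed levels of 644, 594 and 586 CPM in ArR_5h and 697, 572 and 585 CPM in ArD_0h. It was led by ctg799:358384-360220, with 294, 259 and 240 CPM in ArR_5h and 172, 231 and 252 CPM in ArD_0h, and 2 weaker peaks between its members were left out for a lower ratio or level. In that leading peak ArD_0h replicate 1 was the lowest library, and in the 7 others of the group it was the highest. A group of 7 peaks on ctg1029, between 127758 and 150516 bp in the body of evm.TU.ctg1029.2, summed to 1233, 1252 and 1297 CPM in ArR_5h and 1464, 1131 and 1156 CPM in ArD_0h. A second group of 6 lay on the same contig, led by ctg1029:110126-112078 with 434, 459 and 488 CPM in ArR_5h and 679, 511 and 505 CPM in ArD_0h. This leading peak was lower in every ArR_5h library than in any of ArD_0h.

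**Figure D4:**
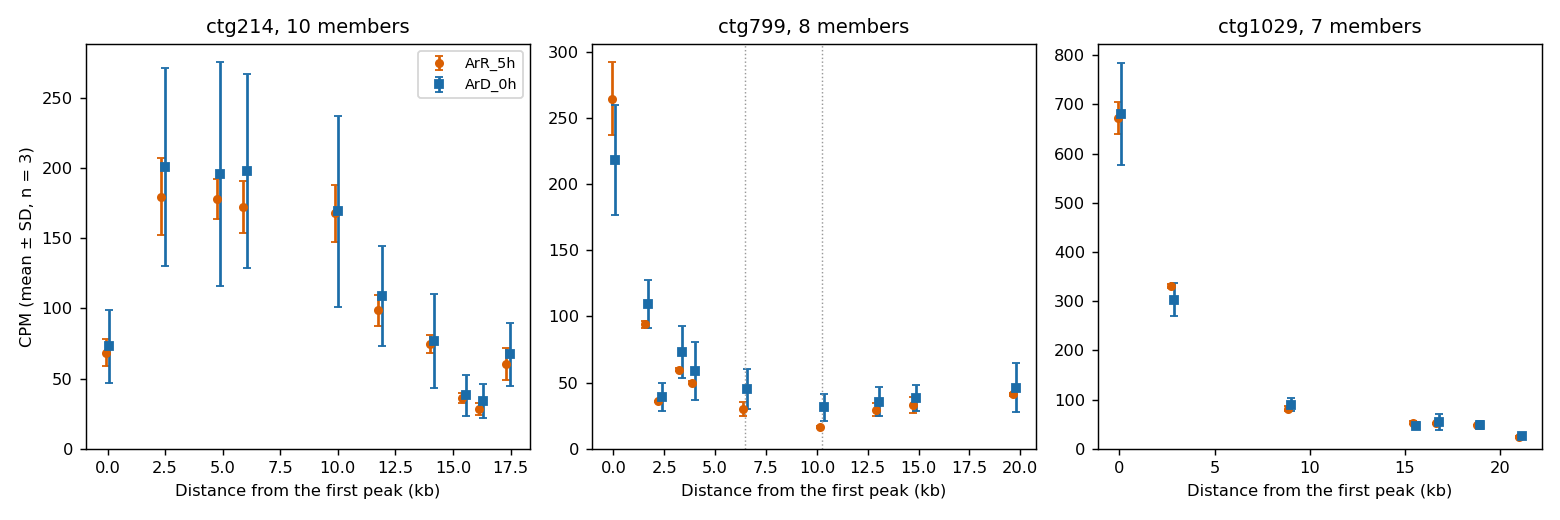
Mean CPM ± SD (n = 3) in ArR_5h and ArD_0h of the peaks of the 3 largest groups against the distance in kb from the first peak's centre, with dotted lines at the 2 peaks on ctg799 that did not meet the rule. Levels within a group differ widely (28.4 to 180 CPM in ArR_5h on ctg214), while the ArR_5h mean lies within 1 SD of the ArD_0h mean except at 3 peaks on ctg799, and the SD of ArD_0h is the wider.

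By gene, 410 of the 606 genes had a single strong level peak and 41 had at least 5. Without ArD_0h replicate 1 the genes with such a peak numbered 1562. The most, 15, were assigned to evm.TU.ctg496.7, 10 of them inside the gene (ctg496:565555-633331). Its strongest had 204, 185 and 207 CPM in ArR_5h and 251, 209 and 220 CPM in ArD_0h, with all ArR_5h libraries below those of ArD_0h. The same gene had 14 strong peaks below the ratio limits and none above. Next came evm.TU.ctg214.15 and evm.TU.ctg2672.2 with 10 each, and evm.TU.ctg799.5 and evm.TU.ctg2066.1 with 9 each. At evm.TU.ctg2066.1 the strongest had 163, 174 and 183 CPM in ArR_5h and 191, 141 and 139 CPM in ArD_0h. That of evm.TU.ctg2672.2 had 105, 114 and 102 CPM in ArR_5h and 70.9, 142 and 138 CPM in ArD_0h. Those of evm.TU.ctg3446.1 and evm.TU.ctg1720.4, with 8 peaks each, averaged 107 and 257 CPM. None of the 8 genes with the most strong level peaks had one over its TSS, and terms were at hand for none of them.

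The set was spread over 501 of 2100 contigs, and over 918 without ArD_0h replicate 1. A single peak was found on 299 contigs, while 49 contigs with at least 5 held 35.4% of the set and 4.75% of all peaks. These contigs were picked by their number of peaks of the set, so the larger share follows from that choice. The contig with the most, ctg1159, had 21 of its 139 peaks in the set, with 10 strong peaks above and 9 below the ratio limits. On ctg1029, 15 of 50 peaks (30.0%) belonged to the set and on ctg835 12 of 49 (24.5%). On ctg1029 6 of the 50 peaks were called lower, and on ctg835 5 of the 49 were called higher and 1 lower. Of all tested peaks 14.5% were called higher and 15.2% lower. On ctg496 the share was 18.1% of 83 peaks and on ctg2672 19.6% of 56 peaks.

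Few of the weaker peaks around the set were called in either direction. Of 1919 tested peaks below 20 CPM in some library and within 10 kb of a strong level peak, 101 were called higher in ArR_5h (5.26%, against 14.5% of all peaks) and 72 lower (3.75%, against 15.2%). The shares followed the distance. Up to 3 kb away 3.60% were higher and 1.59% lower, at 10 to 30 kb 6.73% and 9.68%, at 30 to 100 kb 10.8% and 13.6%, and beyond 100 kb or on contigs without such a peak 15.3% and 15.9%. Without ArD_0h replicate 1 the shares within 10 kb were 4.79% higher and 2.97% lower, against 10.8% and 12.6% of all peaks. The rule did not use these weaker peaks, and no test of the difference was made because peaks are not replicates.

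Neighbours were also stronger than other peaks, with a median of 11.6 CPM against 5.40 CPM. Among peaks of 8 to 16 CPM alone, a range chosen after the data were seen, 4.83% of 829 neighbours were higher and 2.29% lower, against 22.3% and 11.3% of all 22063 peaks in that range. Around strong peaks outside the ratio limits most calls had the direction of those peaks. Within 10 kb of strong peaks above the ratio limits 13.97% were higher and 3.31% lower, and within 10 kb of those below 3.43% were higher and 15.3% lower. Of all tested peaks 14.5% were higher and 15.2% lower. The shares in the direction of the strong peaks were thus close to those of all peaks, and only the opposite shares were smaller. A neighbour can be near peaks of more than 1 class, and the differences between classes were not tested.

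**Figure D5:**
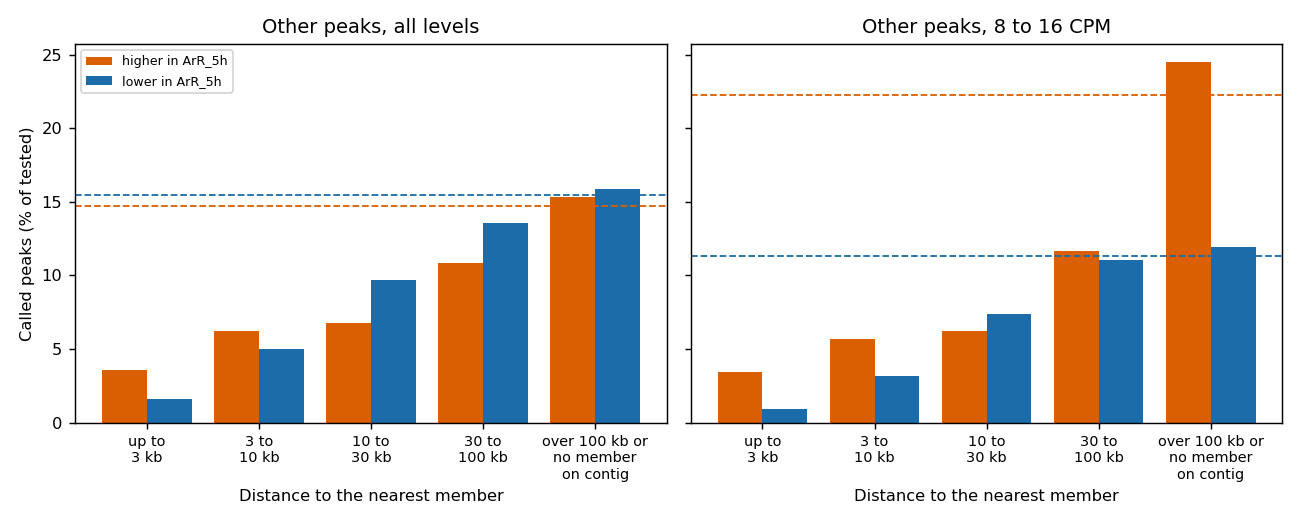
Share of tested peaks outside the strong classes (%) called higher or lower in ArR_5h by edgeR, by distance to the nearest strong level peak, for all levels (left) and for 8 to 16 CPM (right), with dashed lines at the share over all such peaks. Up to 3 kb the shares are 3.60% higher and 1.59% lower on the left, and beyond 100 kb 15.3% and 15.9%.

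Over whole genes the other peaks were closer to the background. The 606 genes had 9642 other tested peaks. Of these 783 were called higher (8.12%, against 14.5% of all peaks) and 1118 lower (11.6%, against 15.2%). As counts, they made up 12.4%, 12.4% and 12.8% of all peak counts in ArR_5h replicates 1, 2 and 3, and 14.6%, 12.9% and 13.2% in ArD_0h replicates 1, 2 and 3. The means were 12.5% ± 0.218 in ArR_5h and 13.6% ± 0.907 in ArD_0h (SD, n = 3 each), a difference of -1.06 percentage points, with every ArR_5h library below those of ArD_0h. The exact permutation test gave a 2-sided p = 0.1, the smallest that 3 against 3 libraries allow. The rule took the strong level peaks out of these genes and left their strong peaks outside the ratio limits in. It thus shaped this share in part, and nothing is read from the test. As a share of the library totals behind the deposited RPM values the difference was 0.168 percentage points, with ArR_5h the higher, so the direction depended on the denominator.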

How the data were processed

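ATAC-seq of 3 ArR_5h and 3 ArD_0h libraries was used. Per the study's methods, reads were trimmed with skewer, mapped with BWA to the *A. franciscana* assembly ASM3288406v1 and filtered for mapping quality, mitochondrial reads and duplicates, and peaks were called with MACS2. A Tn5 shift and the counting tool are not given in the sources used here. The authors' deposited counts are whole numbers per merged peak and library. The deposited RPM values were found to be (count + 1) over a single total for each library. CPM was computed as the count divided by the sum of the column, so it has no term for reads outside peaks. It depends on the open share of each library, and mapping to another species can lower counts where the genomes differ. Against the totals behind the RPM values, counts in peaks made up 14.8%, 14.6% and 13.7% in ArR_5h replicates 1, 2 and 3. In ArD_0h replicates 1, 2 and 3 they made up 10.6%, 13.0% and 12.7%. A level CPM is therefore level only relative to all peak counts of the library.

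Tests on the counts used edgeR 4.0.16 in R 4.3.3 (TMM, filterByExpr, quasi-likelihood, Benjamini-Hochberg over 112211 peaks), with group as the only term. The procedure was tested on simulated counts. DESeq2 1.42.0, other scalings, no filter, a replicate block and leaving out each library were alternatives. Same-numbered libraries did not deviate together (r = -0.22, 0.01 and -0.16 over peaks), so the numbers were not taken as pairs. Shares, correlations and the permutation test used Python 3.11.15 with scipy 1.17.1. The p-values measure the spread between replicates of 1 batch of cysts.

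The members and lists were chosen with earlier results of these data known. Named were the strongest peaks by CPM, per kb and over a TSS, the genes and contigs with the most members, members at promoters of genes with terms, the widest and narrowest, peaks at the limits, and TSS genes with the most called peaks. Other members with terms, groups and TSS peaks without ArD_0h replicate 1 were chosen after their values were seen. The files hold no gene descriptions, no cell type markers could be matched, and no genome sequence was used here, so sequences are not printed.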

Additional observations from a re-analysis of the deposited data

How the results depend on the processing

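Of the main results over these alternatives, 68 values were counted as unchanged in size or side, 31 as moved and 1 as reversed. The unchanged ones include shifts such as 16261 to 12151 peaks higher without ArD_0h replicate 1. The share over a TSS was among the values that moved in several settings. Values that moved are given below. With CPM on TMM-normalized library sizes the share over a TSS was 3.37% and the median width 965 bp, and on deposited RPM values 2.75% and 956.5 bp, with 914 of 1098 and 670 of 1126 peaks shared with the set. A lowest CPM of 10 gave 3354 peaks, 8.80% over a TSS and 803.5 bp, and of 40 gave 328 peaks, 3.35% and 1415 bp. Ratio limits of 0.9 to 1 / 0.9 gave 541 peaks and of 2/3 to 1.5 gave 1647. Ranking by CPM per kb left 1.34% over a TSS. Requiring the highest library to be at most 1.5 times the lowest, added after seeing the data, gave 574 peaks and 2.09% over a TSS. With library totals behind the RPM values, 8.75% of neighbours within 10 kb were higher and 1.668% lower, and the split of all called peaks was 21190 higher (64.0%) and 11933 lower, against 16261 (48.8%) and 17091. That scaling shifts the median log2 difference of all peaks by 0.16. Within 3 kb 3.60% of neighbours were higher and 1.59% lower, and within 30 kb 7.13% lower. At 8 to 16 CPM, also added later, 2.29% were lower. The difference in the share of counts in other peaks of the genes reversed to 0.168 on library totals. The cause of these shifts was not tested beyond what each setting changes.

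Leaving out 1 library gave 985 to 2184 peaks, 3.96% to 22.3% over a TSS, a median width of 989 to 1046 bp, 11373 to 19301 peaks higher and 9561 to 17601 lower, 3.96% to 7.60% of neighbours higher and 2.19% to 4.90% lower, and a share difference of -1.37 to -0.535. The upper ends for the number and the TSS share came without ArD_0h replicate 1. Without ArR_5h replicate 1 the peaks lower in ArR_5h were 9561 and the neighbours lower 2.19%. The replicate block gave 16550 peaks higher and 15268 lower, 5.89% and 3.49% of neighbours, and the same share difference of -1.06. With the block 3 of the 1075 peaks passed the adjusted p of edgeR, against 0 without it, and 6 passed the unadjusted p. The 3 were ctg479:1150444-1152439 (adjusted p = 0.0122), ctg479:1163653-1164839 (0.0415) and ctg2504:39865-40529 (0.0479), with log2 differences of 0.38, 0.43 and 0.45. The rule used this contrast and the replicate numbers were not taken as pairs, so nothing is read from these counts. In that fit 14.7% of all tested peaks were called higher and 13.6% lower, which also required a log2 difference beyond 1 or -1. Of the values of single named peaks, 16 were counted as moved and 534 as not moved, but the latter include changes of sign. Without ArD_0h replicate 1 the log2 difference of ctg107:1744735-1745919 went from 0.14 to -0.22. That of ctg1896:161839-164083 went from 0.08 to -0.12, and that of ctg479:1175993-1177186 from 0.28 to 0.005. Precision is limited by 3 libraries a group and by the spread within ArD_0h.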
